A study of Mus musculus with 77 samples.

Results

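The genes described here are 40 liver genes of the urea cycle and of amino acid breakdown, named gene by gene, out of 55487 genes in the count table. They fall into 8 roles: the urea cycle with its activator and carriers (8 genes), breakdown of tyrosine (4), tryptophan (5), histidine (3), the branched-chain amino acids (9) and lysine (2), the aspartate and alanine aminotransferases (4), and enzymes of serine, proline and glyoxylate (5). The rule that named them used no measured value, but the choice was made with earlier results of these data known. All 40 were among the 14904 genes with enough reads to be tested. The libraries are bulk RNA-seq of the left lateral liver lobe of male C57BL/6JRj mice, 1 library per mouse and 77 in all. The mice arrived at 5 to 6 weeks of age, and the obese ones were fed the Gubra Amylin NASH diet, rich in fat, fructose and cholesterol, for 34 weeks before treatment. These DIO-MASH mice (diet-induced obese mice with metabolic dysfunction-associated steatohepatitis) had been biopsied 4 weeks before treatment, selected on liver histology and housed singly, so they stand for mice with established disease.

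Semaglutide, a long-acting GLP-1 receptor agonist, was injected subcutaneously once daily at 123 µg/kg into mice kept on the MASH diet, for 8 weeks (n = 7), 16 weeks (n = 8) or 24 weeks (n = 8). Chow reversal mice were moved from the MASH diet to chow and injected with vehicle for 8 (n = 7), 16 (n = 8) or 24 weeks (n = 8). Vehicle mice stayed on the MASH diet and received vehicle for 8 (n = 9), 16 (n = 8) or 24 weeks (n = 7). Chow-fed mice, which never received the MASH diet, were given vehicle and are present at 24 weeks alone (n = 7). Every mouse except the chow-fed ones had therefore spent 34 weeks on the MASH diet before treatment. Semaglutide and vehicle mice stayed on it during treatment as well, so time on the diet differed between groups.

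Amino acids that the body does not need for protein are taken apart mainly in hepatocytes. Aminotransferases and dehydrogenases remove their nitrogen, carbon skeletons go on to the citric acid cycle, glucose or ketone bodies, and the ammonia is fixed by carbamoyl-phosphate synthetase and leaves the body as urea after a turn through ornithine, citrulline, argininosuccinate and arginine. Many of these genes are known to be induced by glucagon through cyclic AMP, by glucocorticoids and by dietary protein, and they are densest in periportal hepatocytes. The comparisons ask how the mRNA of this pathway stands in diseased liver, whether it moves with semaglutide or with return to chow, and whether both interventions reach the same levels.

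The 4 members of 40 that were higher in semaglutide than in vehicle mice at each of 8, 16 and 24 weeks (1.05% of all genes) were Afmid, Agxt, Amdhd1 and Hpd. The 250 bases before their start sites are printed because the account below turns on them. The sequences are the RefSeq windows of build GRCm38.p6, read 5′ to 3′ on the gene's own strand: Afmid chr11:117825669-117825918 (plus strand), Agxt chr1:93134990-93135239 (plus), Amdhd1 chr10:93540034-93540283 (minus) and Hpd chr5:123182724-123182973 (minus). Capitals mark the glucocorticoid receptor core AGAACA, here as its reverse complement TGTTCT, the only match among these 4 windows to the motifs searched.
Afmid: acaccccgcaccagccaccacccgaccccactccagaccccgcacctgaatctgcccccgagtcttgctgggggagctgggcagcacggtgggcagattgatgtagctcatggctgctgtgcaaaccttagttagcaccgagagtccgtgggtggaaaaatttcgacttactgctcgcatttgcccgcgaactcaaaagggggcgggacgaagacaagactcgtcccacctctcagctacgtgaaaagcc
Agxt: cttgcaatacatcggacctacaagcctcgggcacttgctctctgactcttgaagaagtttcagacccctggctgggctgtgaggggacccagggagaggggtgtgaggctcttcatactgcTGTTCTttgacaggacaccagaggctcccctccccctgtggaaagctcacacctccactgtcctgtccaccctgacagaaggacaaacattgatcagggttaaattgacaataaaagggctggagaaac
Amdhd1: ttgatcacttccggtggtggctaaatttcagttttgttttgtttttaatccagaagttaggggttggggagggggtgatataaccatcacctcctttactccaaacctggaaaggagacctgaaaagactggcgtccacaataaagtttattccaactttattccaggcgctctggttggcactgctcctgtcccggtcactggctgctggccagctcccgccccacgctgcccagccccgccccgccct
Hpd: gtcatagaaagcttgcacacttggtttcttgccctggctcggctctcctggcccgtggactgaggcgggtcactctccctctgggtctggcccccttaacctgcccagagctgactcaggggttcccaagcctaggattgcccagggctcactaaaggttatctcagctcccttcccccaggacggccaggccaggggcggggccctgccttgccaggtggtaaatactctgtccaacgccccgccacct

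Windows were found for 33 of the 40 members (37 windows, since some genes have more than 1 start site) and set beside 32851 windows of all genes, with both strands read. TGACG, the core of the cyclic AMP response element, was in 4 member windows (10.8%; Aass, Ftcd, Pcca and Slc25a13) against 17.8% of all windows. AGAACA was also in 4 (10.8%; Agxt at 129 bases before the start, Bckdhb, Haao and Pccb) against 16.1% of all windows. The full cyclic AMP element TGACGTCA, which contains the core TGACG, the C/EBP palindrome TTGCGCAA, the amino acid response element TGATGCAAT and the HNF4 site CAAAGTCCA were in 0 of 37 member windows, against 1.55%, 0.164%, 0.167% and 0.384% of all windows. At such low shares of all windows, 0 among 37 does not show that the members lack these sites. All of these are matches of letters in a short window and do not show binding.

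Library depth was 8883150 to 37631072 estimated counts. Members made up 1.45 to 2.61% of the counts of each library. Levels are in CPM, the read counts of edgeR scaled to a common library size with TMM factors, and fold changes are log2 values from a single edgeR quasi-likelihood fit over all 77 libraries, with their standard errors (SE), and p-values are adjusted over all 14904 genes, a gene being called at an adjusted p below 0.05. Library numbers in the labels run in sets of 10, and 3 semaglutide libraries (replicates 7 and 8 at 16 weeks and replicate 8 at 24 weeks) carry numbers outside them; their share of predicted genes was 3.34 to 4.11%, compared with 1.07 to 2.74% for all remaining libraries. The labelled vehicle library 7 of 8 weeks stands where its set has a chow reversal mouse, but its members lay at a mean of -0.49 (log2 CPM, centred on all mice), within the vehicle range of -0.53 to -0.09. Chow reversal replicate 7 at 24 weeks stood apart: its members lay at -0.25 and its 8 macrophage markers summed to 782 CPM, while the members of the other 7 mice of its group lay at 0.04 to 0.38 and the median of the group's macrophage sum was 309 CPM.

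The 10 hepatocyte markers (Alb, Ttr, Apoa1, Apoh, Ahsg, Trf, Fgb, Serpinc1, Rbp4 and Ambp) were present in every library, as the liver label says. Of 5 adipocyte markers Adipoq was at 0 in 55, Plin1 in 62 and Lep in 68 of 77 libraries, but Cfd and Cidec in 0. Of 6 exocrine pancreas markers Pnlip was at 0 in 76, Cpa1 in 74, Prss2 in 68 and Amy2b in 57 libraries, but Cela2a in 3 and Cela1 in 0; their part in the results was not tested. The hepatocyte markers moved with the groups. At 24 weeks 9 of 10 were higher in semaglutide than in vehicle mice (median log2 difference 0.64), 9 of 10 were higher in chow reversal than in vehicle mice (0.64), and 9 of 10 were lower in vehicle than in chow-fed mice (-0.86). The 8 macrophage markers ran the other way: their summed level had a median of 748 CPM in semaglutide mice (609 to 1212), 309 CPM in chow reversal mice (141 to 782), 1325 CPM in vehicle mice (1144 to 1599) and 171 CPM in chow-fed mice (124 to 414). In whole liver, fewer hepatocytes and less RNA per hepatocyte cannot be told apart. The main counts of called members below are therefore given with their values when the library sizes were set so that the hepatocyte markers stayed level on average, a scaling chosen after the data were seen, and the part of the hepatocyte share in the results was not tested beyond it.

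**Figure D1:**
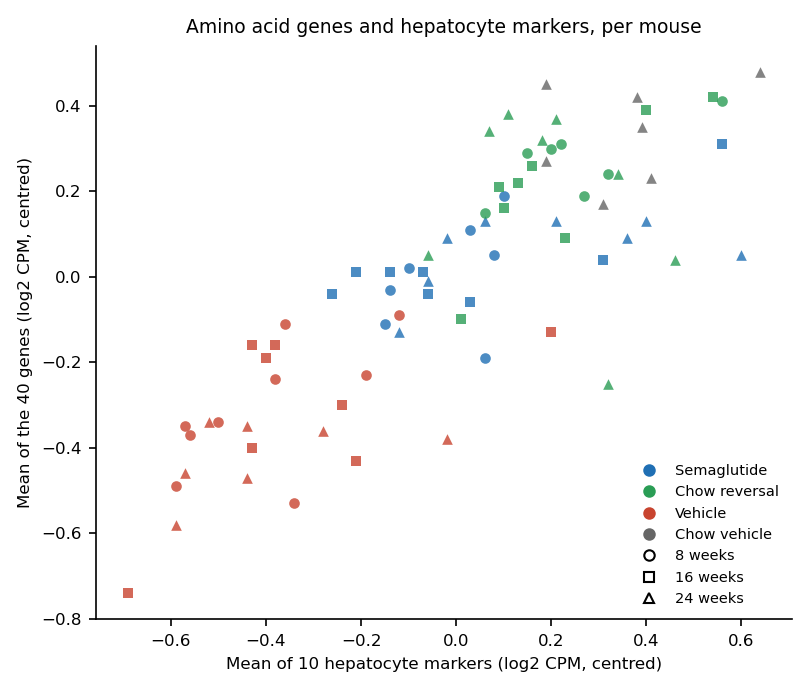
Each point is 1 mouse: the mean of the 40 members (vertical axis, log2 CPM centred on all mice) against the mean of the 10 hepatocyte markers (horizontal axis, same scale), coloured by group. On the vertical axis vehicle mice of 24 weeks lie at -0.58 to -0.34 and chow-fed mice at 0.17 to 0.48, without overlap. On the horizontal axis the same groups lie at -0.59 to -0.02 and 0.19 to 0.64, also without overlap. Replicate 2 of the vehicle mice of 16 weeks reaches 0.20 there, above the lowest chow-fed mouse. The points share libraries and scaling, so no test was made.

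Per kilobase of principal transcript, Ass1 was the most abundant member in chow-fed mice at 3133 CPM per kb, followed by Hpd (1645), Arg1 (847), Cps1 (681) and Haao (474), and Sdsl was the lowest at 11.1. In semaglutide mice at 24 weeks Hpd stood at 2239 CPM per kb, close to Ass1 at 2305, whereas in vehicle mice of the same age Ass1 stood at 1499 and Hpd at 1015. The whole set summed to a median of 22730 CPM in semaglutide mice at 24 weeks (19590 to 23810), 25080 CPM in chow reversal mice (17980 to 27820), 14930 CPM in vehicle mice (13270 to 15860) and 26950 CPM in chow-fed mice (22140 to 30610). No semaglutide, chow reversal or chow-fed mouse of 24 weeks lay within the vehicle range of this sum. This separation depended on the TMM factors. As a share of all counts, members made up 1.581 to 1.84% in vehicle mice of 24 weeks. Semaglutide replicate 2 (1.716%) and chow reversal replicate 7 (1.827%) of 24 weeks lay within that range.

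Vehicle mice on the MASH diet had less mRNA of nearly the whole pathway than chow-fed mice: 36 of 40 members were lower and 0 were higher (median log2 difference -0.73), where 22% of all genes were lower and 25.8% higher (median -0.02). Scaled by library totals, 21 members were lower and 2 higher, and with the hepatocyte markers held level 6 were lower and 10 higher. The members' median was -0.31 against 0.40 for all genes by library totals, and 0.02 against 0.75 with the markers held level. A change of scaling shifts all genes nearly alike, so such a gap, here and below, is not a check of the result. Shares of all genes called under these other scalings are not given here. Member counts under them, here and below, can therefore not be set against all genes. For 25 members every vehicle mouse lay below every chow-fed mouse, against 8.43% of all genes. Got1, Gpt2, Sdsl and Bckdha were not called. The 6 genes that stayed lower with the markers held level were Agxt (-1.04), Tat (-0.83), Afmid (-0.80), Amdhd1 (-0.48), Ivd (-0.48) and Ass1 (-0.29), and the 10 higher ones were led by Gpt2 (0.84), Sdsl (0.68) and Bckdhb (0.53).

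In the main fit more members were called higher in semaglutide than in vehicle mice at each later time, and at no time was a member called lower. The order of the counts depended on the fit, and the effects of 24 and 8 weeks are compared directly below. At 8 weeks 5 of 40 were higher than in vehicle mice (median log2 difference 0.30; 2.24% of all genes higher), at 16 weeks 17 (0.34; 6.44%) and at 24 weeks 25 (0.45; 10.8%), while 3.51%, 5.8% and 13.6% of all genes were lower. With the hepatocyte markers held level the counts higher and lower became 3 and 3 at 8 weeks, 3 and 1 at 16 weeks, and 3 and 7 at 24 weeks; by library totals they were 4 and 1, 6 and 1, and 17 and 1. Against medians over all genes of -0.39, -0.34 and -0.59 with the markers held level, the members stood at -0.08, 0.01 and -0.13. At each time 39 of 40 log2 differences were positive, Gpt2 being the exception at -0.26, -0.24 and -0.23, none of them called. At 24 weeks every semaglutide mouse lay above every vehicle mouse for 7 members (Ass1, Hpd, Hgd, Amdhd1, Ivd, Mccc2 and Gcdh), against 1.15% of all genes.

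The 8-week and 16-week counts depended on the fit. At an unadjusted p below 0.05, 24 members were higher and 1 lower at 8 weeks, and DESeq2 called 8. The 8-week count was 21 when semaglutide and vehicle mice of 8 weeks were fitted alone. It was 11 without the 3 libraries of outside numbers and 10 without chow reversal replicate 7 of 24 weeks. These left-out mice are in neither compared group and enter only through the shared filter, scaling factors and estimate of spread. The 16-week count was 3 when only the compared mice were fitted and 9 with no filter on low counts. The difference between the semaglutide effects of 24 and 8 weeks was tested directly: it was called for 0 of 40 members by edgeR and by DESeq2 (4 higher and 0 lower at an unadjusted p below 0.05; 0.0604% of all genes called lower and none higher), with a positive sign in 36 of 40. Vehicle mice of 24 weeks also did not differ from vehicle mice of 8 weeks in any called member (0 by edgeR and DESeq2; 1 higher and 7 lower unadjusted; 0.731% of all genes higher and 0.0604% lower).

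After return to chow most of the pathway was higher from the first time on. In chow reversal mice 28 members were higher than in vehicle mice at 8 weeks (median log2 difference 0.51; 14.2% of all genes higher, 17.9% lower), 32 at 16 weeks (0.52; 12.1% and 16.2%) and 35 at 24 weeks (0.59; 17% and 19.1%), and 0 were lower. By library totals 18, 16 and 19 were higher and 0 lower. With the hepatocyte markers held level 4, 4 and 6 were higher and 10, 9 and 6 lower, and members stood at medians of -0.14, -0.02 and -0.02, against -0.69, -0.54 and -0.58 for all genes. Groups did not overlap for 15 members at 8 weeks (4.53% of all genes), 4 at 16 weeks (2.5%) and 5 at 24 weeks (1.76%; Ass1, Tat, Agxt, Dbt and Ivd). Without replicate 7, the mouse that stood apart, 37 members were higher at 24 weeks and the median was 0.65. Gpt2, Mccc1 and Sdsl were not called at any time. A joint test over the 3 times called 37 of 40 members for chow reversal (47.2% of all genes) and 32 of 40 for semaglutide (30.9%), with the same vehicle mice in both.

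**Figure D2:**
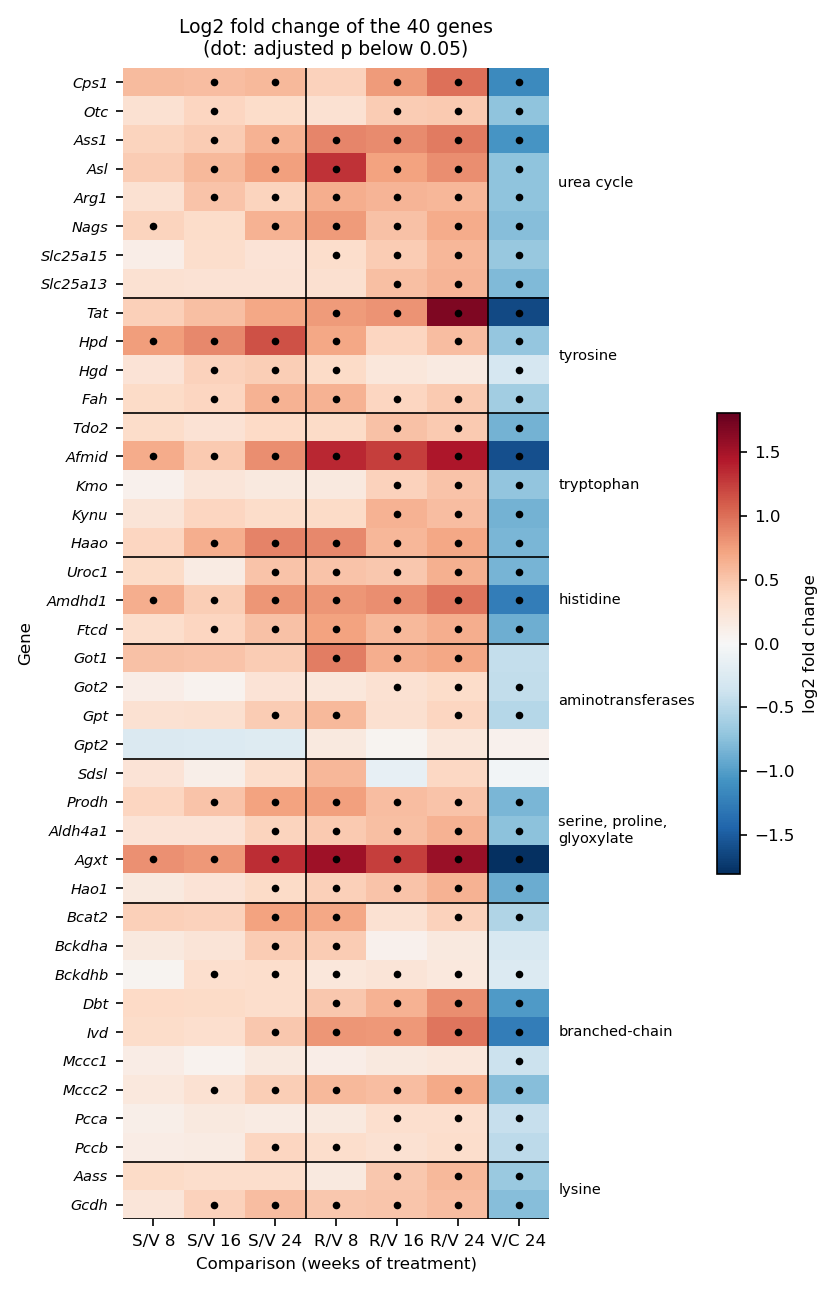
Heat map of log2 fold changes of the 40 members, grouped by role (rows), for semaglutide over vehicle at 8, 16 and 24 weeks (S/V), chow reversal over vehicle at the same times (R/V) and vehicle over chow-fed mice at 24 weeks (V/C); a dot marks an adjusted p below 0.05. The V/C column is blue for 36 called members and the R/V columns are red for 28, 32 and 35, while S/V has 5, 17 and 25 dots; with the hepatocyte markers held level, which is not drawn, 7 members turn lower in S/V and 10 higher in V/C at 24 weeks.

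Set directly against chow reversal mice, semaglutide mice were lower in 8 members and higher in 0 at 8 weeks (2.64% of all genes lower, 3.52% higher), lower in 7 and higher in 1 at 16 weeks (3.56% and 6.24%), and lower in 8 and higher in 2 at 24 weeks (8.72% and 7.77%). Median log2 differences were -0.26, -0.17 and -0.14, and for 8 members every semaglutide mouse lay below every chow reversal mouse at 8 weeks (2.41% of all genes). With the hepatocyte markers held level 2, 1 and 3 members were lower and 1, 3 and 2 higher, and by library totals 5, 3 and 3 were lower and 0, 2 and 3 higher. Afmid, Ivd and Mccc2 were lower with semaglutide at all 3 times (0.966% of all genes), and Ass1 and Gpt2 at 8 weeks and at 1 later time. Hpd ran the other way, higher with semaglutide at 16 weeks (0.48 ± 0.16 SE, edgeR adjusted p = 0.035) and at 24 weeks (0.58 ± 0.16, adjusted p = 0.0075), and Hgd was higher at 24 weeks (0.29 ± 0.10, adjusted p = 0.045). The Hgd call was lost without chow reversal replicate 7 (adjusted p = 0.100), and so was that of Ass1 at 16 weeks (adjusted p = 0.056). Without the 3 libraries of outside numbers, the 16-week calls of Hpd (adjusted p = 0.11), Mccc2 (0.083) and Ass1 (0.18) and the 24-week calls of Hgd and Mccc2 (both 0.057) were lost, while those of Afmid and Ivd and of Hpd at 24 weeks held. Fitting the compared mice alone gave 18, 2 and 1 lower, and at 16 weeks 4 were lower without the vehicle library out of order, 4 with a library set term and 2 without the 3 libraries of outside numbers.

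At 24 weeks both interventions were also set against chow-fed mice. In semaglutide mice 21 members remained lower than in chow-fed mice and Hpd was higher (median log2 difference -0.33; 13.5% of all genes lower, 17.9% higher), and for 8 members every semaglutide mouse lay below every chow-fed mouse (2.47% of all genes). By library totals 5 were lower and 5 higher, and with the hepatocyte markers held level 2 were lower and 5 higher. In chow reversal mice 0 members were called lower or higher than in chow-fed mice by edgeR or DESeq2 (3 lower and 1 higher at an unadjusted p below 0.05; 0.913% of all genes lower, 5.72% higher), and the median difference was -0.13. A missed threshold does not show that these levels were equal.

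The urea cycle was lower as a whole in vehicle than in chow-fed mice, with 8 of 8 genes called, of which only Ass1 stayed called with the hepatocyte markers held level. Its 8 genes summed to a median of 9098 CPM in semaglutide mice at 24 weeks (7202 to 10420), 11940 CPM in chow reversal mice (8316 to 12950), 6128 CPM in vehicle mice (5362 to 6858) and 12460 CPM in chow-fed mice (9258 to 15010). At 24 weeks 5 of 8 rose with semaglutide and 8 of 8 with chow reversal. With the markers held level 0 and 1 were higher and 1 and 0 lower. Beside the TMM counts of this role and of those below, 10.8% of all genes were higher with semaglutide at 24 weeks and 17% with chow reversal. In vehicle against chow-fed mice 22% of all genes were lower. Cps1 (chr1:67123026-67231259), the mitochondrial synthetase that commits ammonia to the cycle, lay at 1436 to 3420 CPM (median 2737) in semaglutide mice of 24 weeks, 1970 to 4631 (3645) in chow reversal mice, 886 to 2520 (1735) in vehicle mice and 3074 to 4836 (3496) in chow-fed mice. The highest vehicle mouse was below the lowest chow-fed mouse, whereas the treated groups overlapped vehicle. Cps1 rose with semaglutide by 0.58 ± 0.20 (SE) at 24 weeks (edgeR adjusted p = 0.024) and with chow reversal by 0.99 ± 0.20 (adjusted p = 4.3e-05), and fell by 1.14 ± 0.20 in vehicle against chow-fed mice (adjusted p = 2.5e-06). With the markers held level these became -0.01, 0.33 and -0.34, none of them called.

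Ass1 (chr2:31470207-31520672), argininosuccinate synthase, joins citrulline to aspartate. At 24 weeks it lay at 3185 to 4493 CPM (median 4044) in semaglutide mice, 3530 to 6055 (4898) in chow reversal mice, 2284 to 2831 (2629) in vehicle mice and 3234 to 6785 (5478) in chow-fed mice. Vehicle mice were below all mice of the other groups. Ass1 was higher than in vehicle mice by 0.62 ± 0.14 with semaglutide (edgeR adjusted p = 0.00075) and by 0.94 ± 0.14 with chow reversal (adjusted p = 1.7e-07) at 24 weeks, against -1.06 ± 0.15 in vehicle over chow-fed mice (adjusted p = 5.4e-09). It was the only urea cycle gene still higher with chow reversal at 24 weeks with the markers held level (0.33, adjusted p = 0.024), where semaglutide gave 0.05. Ass1 shares 43.1% of its 31-base stretches with the pseudogene Gm5424, whose counts were 1.71% of its own.

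Asl, which splits argininosuccinate into arginine and fumarate, varied widely within groups: 488 to 967 CPM (median 635) in semaglutide mice of 24 weeks, 423 to 1009 (749) in chow reversal mice, 270 to 649 (395) in vehicle mice and 470 to 838 (646) in chow-fed mice. Every group overlapped vehicle. Its largest called change came early, with 674 to 1070 CPM in chow reversal mice at 8 weeks against 236 to 422 CPM in vehicle mice, groups that did not overlap (1.30 ± 0.17, edgeR adjusted p = 2.4e-08). At 8 weeks Asl was lower with semaglutide than with chow reversal (-0.83 ± 0.19, adjusted p = 0.0021), and the later differences of -0.14 and -0.08 were not called. Arg1, the arginase that releases urea, lay at 772 to 1496 CPM (median 933) in semaglutide mice of 24 weeks, 839 to 1423 (1127) in chow reversal mice, 642 to 894 (757) in vehicle mice and 1091 to 1435 (1251) in chow-fed mice. Vehicle and chow-fed mice did not overlap in Arg1, while both treated groups overlapped vehicle. Its called rise of 0.40 with semaglutide and 0.60 with chow reversal at 24 weeks became -0.16 and -0.02 with the markers held level.

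Nags makes N-acetylglutamate, the obligate activator of Cps1, and was the only urea cycle gene called at 8 weeks of semaglutide (0.40 ± 0.12, edgeR adjusted p = 0.044). It lay then at 63.2 to 85.7 CPM (median 73.4) in semaglutide mice and 48.7 to 65.7 CPM (58.5) in vehicle mice. These ranges overlapped slightly, and without the vehicle library out of order the call was lost (adjusted p = 0.097). At 24 weeks Nags was higher by 0.62 ± 0.13 with semaglutide (adjusted p = 0.00025) and by 0.67 ± 0.13 with chow reversal (adjusted p = 2.6e-05), and with the markers held level by 0.02 and 0.07, not called. Otc, the X-linked ornithine transcarbamylase, was called higher with semaglutide at 16 weeks alone (0.38 ± 0.13, adjusted p = 0.048, and 0.21 without the 3 libraries of outside numbers), and at 24 weeks lay at 254 to 604 CPM (median 369) in semaglutide mice, 221 to 552 (437) in chow reversal mice, 225 to 350 (314) in vehicle mice and 422 to 568.1 (520) in chow-fed mice. The vehicle and chow-fed ranges of Otc were separate. The mitochondrial carriers Slc25a15 (ornithine) and Slc25a13 (aspartate and glutamate) were not called with semaglutide at any time, with 24-week differences of 0.25 and 0.26, but rose with chow reversal by 0.60 and 0.61; with the markers held level Slc25a15 was lower with semaglutide (-0.35, adjusted p = 0.034).

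**Figure D3:**
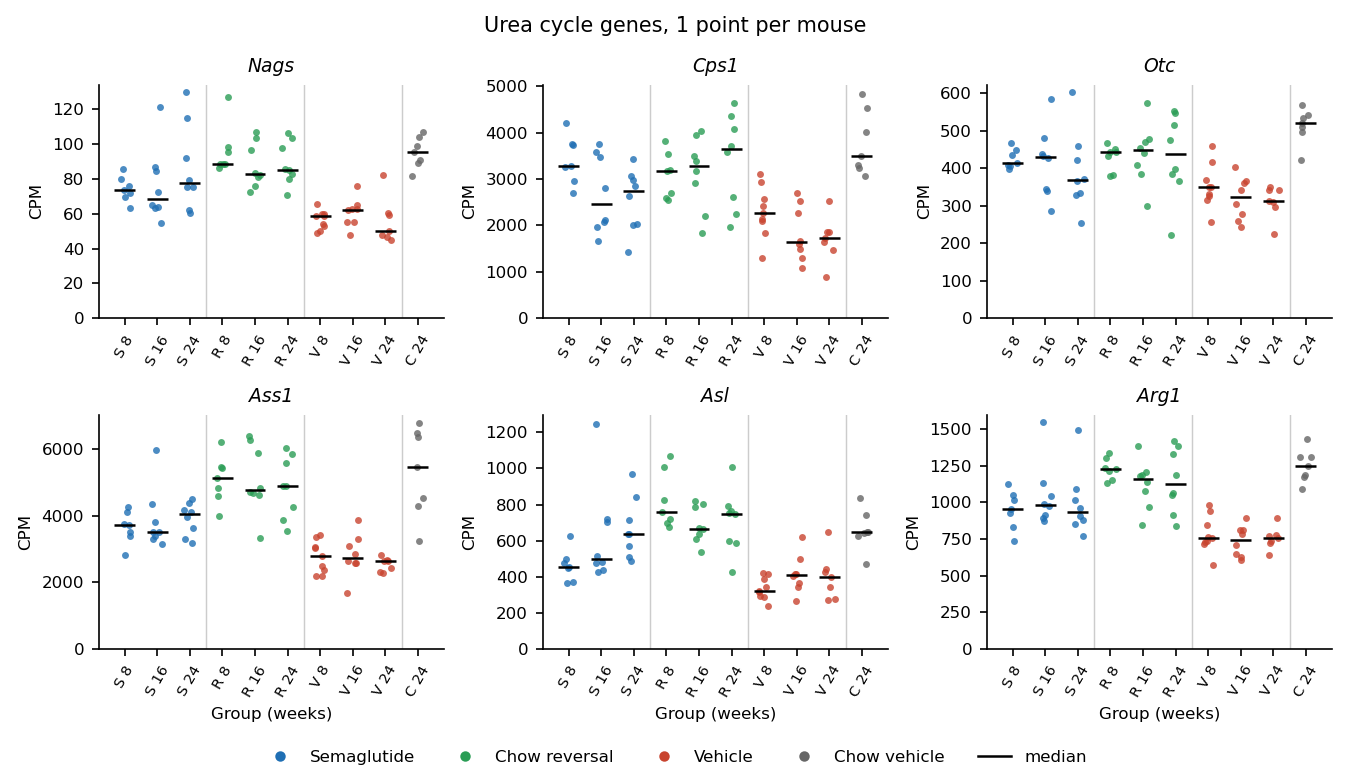
CPM of Nags, Cps1, Otc, Ass1, Asl and Arg1 in each mouse (1 point per mouse, line at the group median), for semaglutide (S), chow reversal (R) and vehicle (V) at 8, 16 and 24 weeks and chow-fed mice (C) at 24 weeks. Ass1 separates all vehicle mice of 24 weeks (2284 to 2831 CPM) from the semaglutide mice (3185 to 4493 CPM), while Asl overlaps between all groups of 24 weeks.

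Tyrosine breakdown holds Hpd, the member higher with semaglutide than with chow reversal at 16 and 24 weeks. All 4 genes of the route were lower in vehicle than in chow-fed mice, Hpd, Hgd and Fah rose with semaglutide at 24 weeks and Tat, Hpd and Fah with chow reversal; with the markers held level 1 was lower and 1 higher in vehicle mice, 1 was higher with semaglutide, and 1 was higher and 1 lower with chow reversal. Hpd (chr5:123171807-123182727), 4-hydroxyphenylpyruvate dioxygenase, lay in semaglutide mice at 1956 to 2943 CPM (median 2496) at 8 weeks, 1783 to 5320 (2694) at 16 weeks and 2249 to 3931 (3250) at 24 weeks. Vehicle mice lay at 1029 to 2151 (1301), 890 to 2499 (1622) and 971 to 1994 (1404) CPM. The groups were separate at 24 weeks and overlapped before.

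Hpd was higher with semaglutide by 0.75 ± 0.16 at 8 weeks (edgeR adjusted p = 0.001), 0.87 ± 0.16 at 16 weeks (adjusted p = 0.00013) and 1.14 ± 0.16 at 24 weeks (adjusted p = 3.5e-07), and with the markers held level by 0.39, 0.52 and 0.56, each still called. Chow reversal mice of 24 weeks lay at 1358 to 2564 CPM (median 2235) and chow-fed mice at 1963 to 3013 (2239). In chow reversal mice Hpd was higher than in vehicle mice by 0.56 ± 0.16 (adjusted p = 0.0043), a difference of -0.01 with the markers held level. Hpd was also called higher in semaglutide than in chow-fed mice (0.45 ± 0.16, edgeR adjusted p = 0.029), though their ranges overlapped. It was the only member so called with TMM factors, but not by library totals or with the markers held level. With no filter on low counts this call of Hpd was lost.

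Tat, tyrosine aminotransferase, is the first enzyme of the same route and a textbook target of glucocorticoids and glucagon. It lay at 287 to 886 CPM (median 543) in semaglutide mice of 24 weeks, 556 to 1792 (1028) in chow reversal mice, 260 to 503 (300) in vehicle mice and 751 to 1455 (972) in chow-fed mice. Chow reversal and chow-fed mice were all above vehicle, and semaglutide mice overlapped it. Its differences from vehicle with semaglutide were not called (0.43, 0.54 and 0.70 at 8, 16 and 24 weeks), and with chow reversal they were 0.76, 0.81 and 1.68, each called. The 8-week semaglutide value includes replicate 5 at 2740 CPM, where the nearest mouse lay at 609 CPM. Its sign without that mouse was not tested. At 24 weeks Tat was lower with semaglutide than with chow reversal by -0.98 ± 0.30 (edgeR adjusted p = 0.018). The 24-week rise with chow reversal was 1.03 with the markers held level (adjusted p = 0.0061). Hgd, homogentisate 1,2-dioxygenase, and Fah, the last enzyme of the route, rose by 0.44 ± 0.11 and 0.62 ± 0.14 with semaglutide at 24 weeks. Hgd ranged over 687 to 828.5 CPM in semaglutide mice, above the 448 to 634 CPM of vehicle mice, whereas Fah overlapped (516 to 1090 against 370 to 609 CPM). Held to level markers, the semaglutide differences were -0.12 for Hgd and 0.02 for Fah, neither called.

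Tryptophan breakdown through kynurenine was lower in vehicle than in chow-fed mice for 5 of 5 genes, higher with chow reversal for 5 of 5 at 24 weeks and higher with semaglutide for 2, Afmid and Haao. With the markers held level 1 was lower in vehicle mice, 1 was higher with chow reversal, and with semaglutide 1 was higher and 1 (Kmo) lower. Afmid (chr11:117825924-117839908), the formamidase that yields kynurenine, lay at 46.6 to 105 CPM (median 85.2) in semaglutide mice of 24 weeks, 52.4 to 183 (130) in chow reversal mice, 38.5 to 52.8 (45.4) in vehicle mice and 106 to 156 (144) in chow-fed mice. All semaglutide and all vehicle mice were below the lowest chow-fed mouse. The highest vehicle mouse was within the range of both treated groups, by a fraction of a CPM for chow reversal.

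The Afmid differences from vehicle were 0.67, 0.47 and 0.84 with semaglutide at 8, 16 and 24 weeks and 1.36, 1.25 and 1.45 with chow reversal, all called (at 24 weeks 0.84 ± 0.16, edgeR adjusted p = 6.7e-05, and 1.45 ± 0.16, adjusted p = 3.6e-11). The 16-week semaglutide call was lost without the 3 libraries of outside numbers (adjusted p = 0.063). Afmid was lower with semaglutide than with chow reversal by -0.70, -0.78 and -0.61. The chow reversal differences stayed called with the markers held level at 0.72, 0.69 and 0.85, and the semaglutide difference of 24 weeks, 0.26, was not. Afmid shares 44.2% of its exon bases with the read-through gene Gm20708, whose counts were 5.87% of its own, and overlaps Tk1 on the other strand. Haao, which opens the ring of 3-hydroxyanthranilate, lay at 511 to 1064 CPM (median 629) in semaglutide mice of 24 weeks, 430 to 877 (595) in chow reversal mice, 254 to 545 (325) in vehicle mice and 554 to 832 (653) in chow-fed mice. Only the vehicle and chow-fed ranges of Haao were separate. It rose with semaglutide by 0.89 ± 0.16 (adjusted p = 4.1e-05), and by 0.30 with the markers held level (adjusted p = 0.006). Tdo2, the dioxygenase that opens the route, and Kmo and Kynu further down it were not called with semaglutide at any time, with 24-week differences of 0.36, 0.17 and 0.33.

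In histidine breakdown at 24 weeks 3 of 3 genes were lower in vehicle than in chow-fed mice and 3 of 3 were higher with semaglutide and with chow reversal, counts that became 1, 0 and 1 with the markers held level. Amdhd1, imidazolonepropionase, lay in semaglutide mice at 177 to 247 CPM (median 226) at 8 weeks, 158 to 217 (190) at 16 weeks and 147 to 240 (200) at 24 weeks. Vehicle mice lay at 110 to 202 (135), 106 to 190 (136) and 103 to 132 (112) CPM, and chow-fed mice at 213 to 305 (285). Semaglutide and vehicle mice were separate at 24 weeks and overlapped earlier. Its differences with semaglutide were 0.65 ± 0.12 at 8 weeks (edgeR adjusted p = 0.0001), 0.44 ± 0.12 at 16 weeks (adjusted p = 0.0082) and 0.80 ± 0.12 at 24 weeks (adjusted p = 8.6e-07). With the markers held level it stayed called at 8 weeks (0.28) and not at 24 weeks (0.23, adjusted p = 0.071). Uroc1, urocanase, and Ftcd, which passes the formimino group of histidine to folate, rose with semaglutide at 24 weeks by 0.51 ± 0.12 and 0.53 ± 0.13 and with chow reversal by 0.64 ± 0.12 and 0.65 ± 0.13. With the markers held level these were -0.07 and -0.04, and 0.03 and 0.06.

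Of the 4 aminotransferases at 24 weeks, 2 were lower in vehicle than in chow-fed mice, 1 rose with semaglutide and 3 with chow reversal, whereas with the markers held level 3 were higher in vehicle mice, 2 lower with semaglutide and 1 lower with chow reversal. Gpt, the cytosolic alanine aminotransferase, lay at 281 to 483 CPM (median 400) in semaglutide mice, 235 to 507 (378) in chow reversal mice, 219 to 442 (266) in vehicle mice and 361 to 511 (381) in chow-fed mice. All 4 groups overlapped, and the called rise with semaglutide was 0.46 ± 0.14 (edgeR adjusted p = 0.012), or -0.11 with the markers held level. Got1, the cytosolic aspartate aminotransferase, was called with chow reversal at all 3 times (0.92, 0.65 and 0.69) and never with semaglutide (0.53, 0.52 and 0.46). Got2, the mitochondrial form, fell by 0.44 ± 0.11 in vehicle against chow-fed mice (adjusted p = 0.00032), a difference of 0.34 with the markers held level. Gpt2, the mitochondrial alanine aminotransferase, was lower with semaglutide than with chow reversal at 8 weeks (-0.44 ± 0.13, adjusted p = 0.023) and at 24 weeks (-0.44 ± 0.12, adjusted p = 0.0077).

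Among the enzymes of serine, proline and glyoxylate, 4 of 5 were lower in vehicle than in chow-fed mice and 4 of 5 rose with each intervention at 24 weeks, Sdsl, serine dehydratase-like, being the gene not called; with the markers held level 1 was lower and 1 (Sdsl) higher in vehicle mice and Agxt alone was higher with each intervention. Agxt (chr1:93135240-93145421), the aminotransferase that turns glyoxylate into glycine, had the largest fold change of all members with semaglutide at 24 weeks and in vehicle against chow-fed mice. Semaglutide mice lay at 185 to 248 CPM (median 224) at 8 weeks, 147 to 382 (219) at 16 weeks and 144 to 354 (268) at 24 weeks, and vehicle mice at 86.8 to 207 (122), 72.4 to 265 (120) and 74 to 163 (101) CPM. Chow reversal mice of 24 weeks lay at 222 to 355 CPM (308) and chow-fed mice at 257 to 517 (319). Vehicle mice of 24 weeks were below all chow reversal and chow-fed mice, and they overlapped the semaglutide range at its lower end.

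Agxt was higher with semaglutide by 0.82 ± 0.19 at 8 weeks (edgeR adjusted p = 0.003), 0.78 ± 0.19 at 16 weeks (adjusted p = 0.0036) and 1.33 ± 0.20 at 24 weeks (adjusted p = 6.8e-07). Scaled to level markers these were 0.46, 0.46 and 0.75, each still called, and the chow reversal differences were 0.87, 0.75 and 0.96. Vehicle against chow-fed mice gave -1.79 ± 0.20 (adjusted p = 1.4e-11), and -1.04 with the markers held level. Semaglutide mice were lower than chow reversal mice at 8 weeks (-0.70 ± 0.20, adjusted p = 0.02) and differences at 16 and 24 weeks were not called (-0.46 and -0.22). Prodh and Aldh4a1, which in sequence oxidise proline to glutamate, rose with semaglutide at 24 weeks by 0.72 ± 0.18 and 0.40 ± 0.11 and with chow reversal by 0.52 ± 0.18 and 0.63 ± 0.11. Aldh4a1 ranged over 352 to 407 CPM in vehicle mice and 532 to 711 CPM in chow-fed mice, without overlap, and Prodh over 106 to 214 and 198 to 376 CPM, with overlap. Hao1, glycolate oxidase, which makes glyoxylate, rose by 0.35 ± 0.12 and 0.63 ± 0.12 at 24 weeks.

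**Figure D4:**
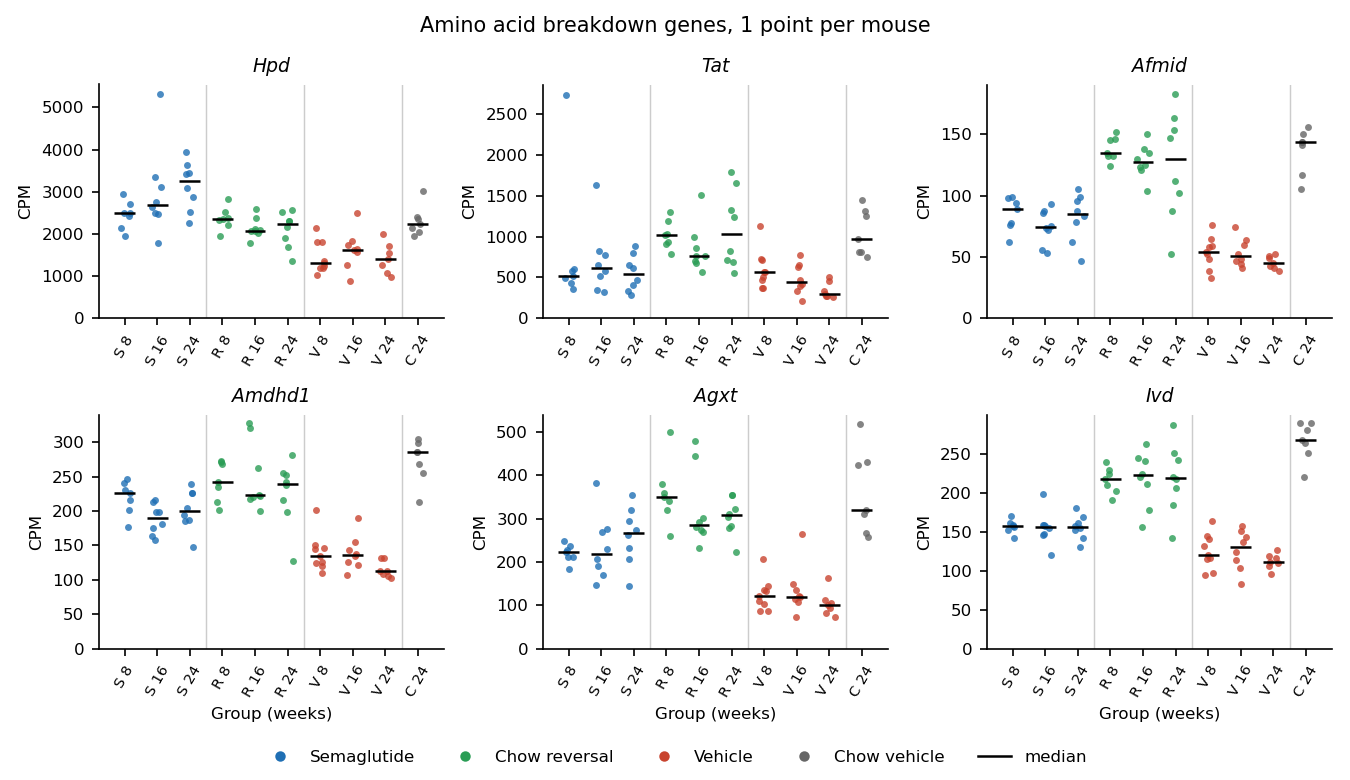
CPM of Hpd, Tat, Afmid, Amdhd1, Agxt and Ivd in each mouse (1 point per mouse, line at the group median), for semaglutide (S), chow reversal (R) and vehicle (V) at 8, 16 and 24 weeks and chow-fed mice (C) at 24 weeks. Hpd is highest in semaglutide mice of 24 weeks (median 3250 CPM, against 2235 in chow reversal and 1404 in vehicle mice), while Afmid and Ivd stay below the chow reversal medians with semaglutide.

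Of the 9 genes of branched-chain breakdown, 8 were lower in vehicle than in chow-fed mice, 6 rose with semaglutide and 7 with chow reversal at 24 weeks; with the markers held level 5 were higher and 1 lower in vehicle mice, 3 lower with semaglutide, and 4 lower and 1 higher with chow reversal. Ivd, isovaleryl-CoA dehydrogenase of leucine breakdown, lay at 130 to 181 CPM (median 156) in semaglutide mice of 24 weeks, 142 to 287 (219) in chow reversal mice, 96.4 to 127 (112) in vehicle mice and 220 to 290 (268) in chow-fed mice. Each of the other groups was wholly above vehicle, and all semaglutide mice were below all chow-fed mice. Ivd rose by 0.48 ± 0.11 with semaglutide (edgeR adjusted p = 0.00099) and by 0.96 ± 0.11 with chow reversal (adjusted p = 1.2e-10), and semaglutide was lower than chow reversal by -0.46, -0.48 and -0.49 at the 3 times. With the markers held level the differences from vehicle were -0.09 and 0.37, the second called (adjusted p = 0.008). Mccc2, the beta subunit of methylcrotonyl-CoA carboxylase in the next step, rose by 0.44 ± 0.09 with semaglutide, with 52.2 to 67.2 CPM in semaglutide and 40.5 to 50.0 CPM in vehicle mice, and its partner Mccc1 was not called with either intervention at any time.

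The first, shared steps of branched-chain breakdown moved unevenly. Bcat2, the mitochondrial branched-chain aminotransferase, rose with semaglutide by 0.73 ± 0.17 at 24 weeks (edgeR adjusted p = 0.0008) and with chow reversal by 0.42 ± 0.17 (adjusted p = 0.043), but it overlaps the antisense gene 0610005C13Rik, whose counts were 528% of its own, so its level is uncertain. Among subunits of the branched-chain ketoacid dehydrogenase, Bckdha and Bckdhb rose with semaglutide at 24 weeks (0.46 and 0.32), Dbt did not pass (0.32), and Dbt rose with chow reversal by 0.84 ± 0.16 (adjusted p = 2e-05). Dbt was lower with semaglutide than with chow reversal at 24 weeks (-0.52 ± 0.15, adjusted p = 0.015). Pcca and Pccb, subunits of propionyl-CoA carboxylase, rose with chow reversal by 0.30 and 0.31, and Pccb alone with semaglutide (0.38). Pcca overlaps Ggact, whose counts were 54.6% of its own.

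Both lysine genes, Aass, the bifunctional first enzyme, and Gcdh, glutaryl-CoA dehydrogenase, were lower in vehicle than in chow-fed mice and higher with chow reversal at 24 weeks, calls that were all lost with the markers held level. Aass lay at 200 to 342 CPM (median 257) in semaglutide mice, 239 to 383 (331) in chow reversal mice, 130 to 267 (212) in vehicle mice and 300 to 385 (331) in chow-fed mice, and its semaglutide difference of 0.32 ± 0.13 missed the threshold (edgeR adjusted p = 0.054). Gcdh lay at 484 to 667 CPM (median 625.4) in semaglutide mice, 291 to 715 (654) in chow reversal mice, 358 to 471 (408) in vehicle mice and 644 to 793 (689) in chow-fed mice. Vehicle mice were separate from chow-fed mice in both genes and from semaglutide mice in Gcdh, which rose by 0.56 ± 0.12 (adjusted p = 0.00018). The lowest Gcdh value of chow reversal mice was that of replicate 7.

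**Figure D5:**
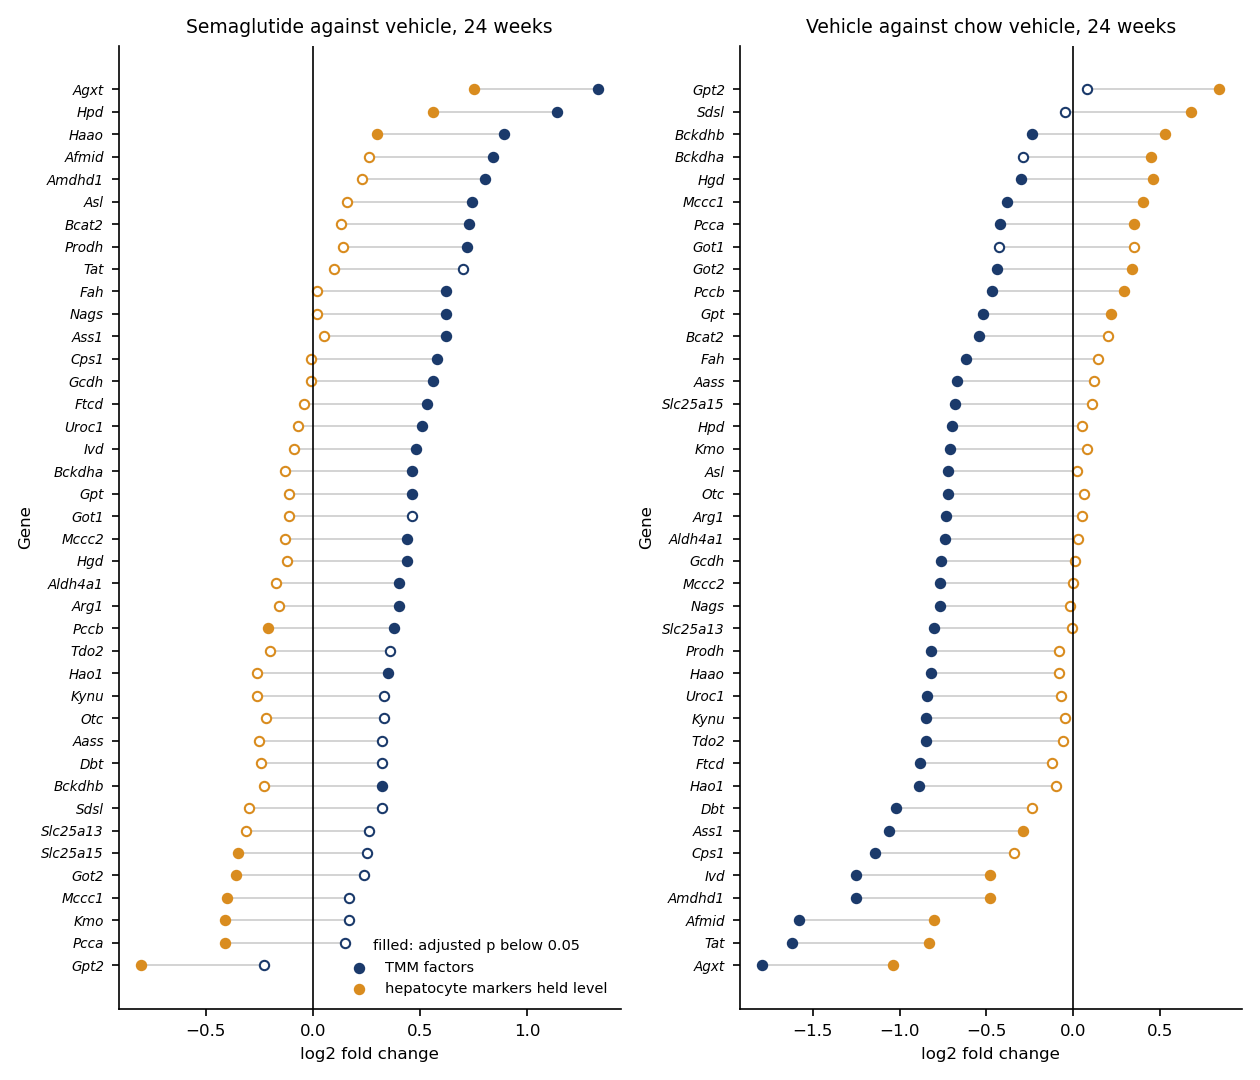
Log2 fold change (horizontal axis) of each member (1 row per gene) with the TMM scaling (blue) and with the 10 hepatocyte markers held level (orange), joined by a line, for semaglutide over vehicle (left) and vehicle over chow-fed mice (right) at 24 weeks; filled points have an adjusted p below 0.05. The orange points sit left of the blue ones with semaglutide and right of them in vehicle mice, with Agxt at 0.75 and Hpd at 0.56 on the left and Agxt at -1.04 on the right still called, 7 members called lower on the left and 10 called higher on the right.

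Other genes of the pathway, from lists of enzymes, transporters and regulators, were less uniform. Of 50 further amino acid enzymes tested, 7, 14 and 20 were higher and 0, 0 and 3 lower with semaglutide at 8, 16 and 24 weeks, 23, 26 and 28 were higher and 6, 6 and 5 lower with chow reversal, and 35 were lower and 7 higher in vehicle than in chow-fed mice (of all genes 2.24%, 6.44% and 10.8% were higher with semaglutide, 14.2%, 12.1% and 17% higher with chow reversal, and 22% lower and 25.8% higher in vehicle mice). The shares of all genes lower were 3.51%, 5.8% and 13.6% with semaglutide and 17.9%, 16.2% and 19.1% with chow reversal. With the hepatocyte markers held level the enzymes' 24-week counts higher and lower were 2 and 23 for semaglutide, 9 and 20 for chow reversal and 24 and 9 for vehicle against chow, and by library totals 12 and 8, 18 and 10, and 13 and 20. Among them Gls2, the liver glutaminase that feeds ammonia to Cps1, lay at 316 to 432 CPM (median 412) in semaglutide mice of 24 weeks, 350 to 591 (498) in chow reversal mice, 191 to 269 (218) in vehicle mice and 429 to 641 (583) in chow-fed mice. Vehicle mice were below all others. Gls2 rose with semaglutide by 0.80 ± 0.14 (edgeR adjusted p = 2.7e-05). Pipox, which oxidises sarcosine and pipecolate, and Cdo1, cysteine dioxygenase, rose by 0.89 ± 0.12 and 0.75 ± 0.11. On level markers the semaglutide differences of Gls2, Pipox and Cdo1 were 0.22, 0.33 and 0.17, none of them called. The 7 enzymes higher in vehicle than in chow-fed mice included Arg2, the mitochondrial arginase (2.67, at 0.63 to 1.56 CPM in vehicle mice), Aldh18a1, which makes proline (2.21), and Psat1 (1.94) and Phgdh (1.37), which make serine; Bckdk, the kinase that switches off the branched-chain dehydrogenase, was also among them (0.72). These names were chosen after their values were seen.

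Cth, cystathionine gamma-lyase, which makes cysteine, differed between the interventions. It lay at 115 to 272 CPM (median 192) in semaglutide mice of 24 weeks, 262 to 646 (429) in chow reversal mice, 101 to 191 (130) in vehicle mice and 359 to 729 (629) in chow-fed mice. Semaglutide mice overlapped vehicle and were all below chow-fed mice. The difference from vehicle was not called with semaglutide (0.47 ± 0.20, edgeR adjusted p = 0.072) and was 1.68 ± 0.20 with chow reversal (adjusted p = 3.7e-10); directly compared, semaglutide was lower than chow reversal by -1.21 ± 0.19 (adjusted p = 3.4e-06). On level markers these 3 differences were -0.09, not called, and 1.08 and -1.16, both called.

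Of 15 amino acid and ammonia transporters, 3, 1 and 6 were higher and 0, 2 and 2 lower with semaglutide at 8, 16 and 24 weeks, 5, 8 and 10 were higher and 0 lower with chow reversal, and 11 were lower and 1 higher in vehicle than in chow-fed mice. Of all genes 2.24%, 6.44% and 10.8% were higher and 3.51%, 5.8% and 13.6% lower with semaglutide at these times. With chow reversal 14.2%, 12.1% and 17% were higher and 17.9%, 16.2% and 19.1% lower, and in vehicle against chow-fed mice 22% were lower and 25.8% higher. On level markers the transporters' 24-week counts higher and lower were 0 and 4, 1 and 3, and 4 and 1 in that order, and by library totals 3 and 3, 5 and 2, and 3 and 6. Slc38a3, the glutamine and histidine carrier of hepatocytes, rose with semaglutide by 0.75 ± 0.15 at 24 weeks (edgeR adjusted p = 0.00016), and by 0.18 on level markers, not called. Rhbg, an ammonium transporter of perivenous hepatocytes, went the other way: it lay at 2.32 to 5.33 CPM (median 3.87) in semaglutide mice, 4.54 to 17.5 (8.39) in chow reversal mice, 4.19 to 12.1 (10.8) in vehicle mice and 3.23 to 17 (6.64) in chow-fed mice. The semaglutide range reached below the others and overlapped them. Rhbg fell by 1.24 ± 0.27 at 16 weeks (adjusted p = 0.0015) and by 1.16 ± 0.27 at 24 weeks (adjusted p = 0.0011), and was lower than in chow reversal mice at each time. On level markers it was lower with semaglutide by -1.65 and -1.70, both called.

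Of 16 regulators and reference targets, 1, 0 and 5 were higher and 0 lower with semaglutide at 8, 16 and 24 weeks, 8, 7 and 7 were higher and 2, 1 and 1 lower with chow reversal, and 8 were lower and 1, Fgf21 (2.25), higher in vehicle than in chow-fed mice. Of all genes 2.24%, 6.44% and 10.8% were higher and 3.51%, 5.8% and 13.6% lower with semaglutide at these times. With chow reversal 14.2%, 12.1% and 17% were higher and 17.9%, 16.2% and 19.1% lower, and in vehicle against chow-fed mice 22% were lower and 25.8% higher. On level markers the regulators' 24-week counts higher and lower were 0 and 4, 0 and 5, and 7 and 0, and by library totals 2 and 1, 3 and 1, and 3 and 3. The regulator called with semaglutide at 8 weeks was Hnf4a (0.54 ± 0.12, edgeR adjusted p = 0.0025). On level markers 0 regulators were higher and 2 lower at that time. Gcgr, the glucagon receptor, lay at 240 to 504 CPM (median 276) in semaglutide mice of 24 weeks, 230 to 367 (255) in chow reversal mice, 151 to 293 (214) in vehicle mice and 268 to 396 (321) in chow-fed mice, with overlap between all groups. It was higher by 0.55 ± 0.14 with semaglutide (edgeR adjusted p = 0.0026), but at -0.06 on level markers. Klf15, a glucocorticoid-induced factor known in mice to drive amino acid breakdown, rose by 0.78 ± 0.16 (adjusted p = 0.00022; 0.20 on level markers, not called), and Ppargc1a, a coactivator of the fasting response, was not called (0.42 ± 0.20, adjusted p = 0.13). Atf4, the effector of the amino acid response, was not called with semaglutide (0.23 ± 0.14, adjusted p = 0.22) and was lower in vehicle than in chow-fed mice (-0.54 ± 0.14, adjusted p = 0.0011); on level markers these were -0.37, called lower, and 0.23, called higher.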

How the data were processed

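Total liver RNA was sequenced from 77 mice in 10 groups with a directional kit. The authors aligned reads with STAR 2.7.3a to the GRCm38 transcriptome and quantified them with Salmon 1.2.0; the deposited values are estimated counts per gene, 7.55% of them fractional, which were rounded here. The annotation release and strand setting are not given in the sources used here, so reads of overlapping antisense genes may not be told apart. Symbols (55227 of 55487 identifiers) and gene coordinates came from GENCODE M21. Genes with low counts were removed by the edgeR 4.0.16 group-wise filter, libraries scaled by TMM (factors 0.793 to 1.31), and a quasi-likelihood model with 1 coefficient per group fitted to all libraries (R 4.3.3, limma 3.58.1), with Benjamini-Hochberg adjustment over 14904 genes. Each library is a separate mouse, and groups came from the labels. Log2 CPM values carry a prior count of 2. Alternatives were DESeq2 1.42.0, RLE factors, library totals, no filter, only the compared groups, a library set term and 3 sets of left-out libraries; hepatocyte markers held level and leaving out chow reversal replicate 7 were added after the data were seen. Members and lists were chosen with earlier results of these data known. Full values were given for, in each role, the best-ranked members by p (up to 2 for each joint test of the 3 semaglutide or 3 chow reversal effects, and 1 for vehicle against chow), plus the 5 enzymes of the urea cycle; of the other pathway lists, the up to 5 and up to 3 with the smallest p in those joint tests were eligible. Promoter windows are the RefSeq windows of GRCm38.p6.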

Additional observations from a re-analysis of the deposited data

Results flagged for a closer look

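In 17 of 240 combinations of a named member and a group, 1 mouse lay far from the rest of its group (a gap to the nearest mouse that is large against the whole range, by Dixon's test); chance gives about 1 in 20. Chow reversal replicate 7 of 24 weeks, the mouse that stood apart in the members' mean, was the lowest for Gcdh (291 CPM, nearest 554), Got2 (336, nearest 502) and Otc (221, nearest 367), and replicate 8 of that group was the lowest for Amdhd1 (127, nearest 198). Semaglutide mice stood high at 8 weeks for Tat in replicate 5 (2740 CPM, nearest 609) and at 16 weeks for Gpt and Prodh in replicate 4 (733, nearest 387, and 507, nearest 257) and Arg1 in replicate 7 (1550, nearest 1130), and low at 24 weeks for Got2 in replicate 8 (305, nearest 484). Chow reversal mice stood high for Nags at 8 weeks in replicate 2 (127, nearest 98.3) and for Prodh at 16 weeks in replicate 1 (369, nearest 278). Among vehicle mice Prodh at 8 weeks in replicate 3 (244, nearest 167) and Got1 at 24 weeks in replicate 2 (205, nearest 144) were high, and Mccc2 at 16 weeks in replicate 6 (35, nearest 44) and Aass and Otc at 24 weeks in replicate 3 (130, nearest 201, and 225, nearest 298) were low. Chow-fed replicate 1 was the lowest for Got1 (112, nearest 191).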

How the results depend on the processing

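No paired analysis was possible because each mouse gave 1 library at 1 time and no label ties mice of different groups. Of 160 calls of named members, the direction and the call were the same for 159 with DESeq2, 155 with RLE factors, 151 with a library set term, 139 with no filter on low counts, 131 with only the compared groups, 157 without chow reversal replicate 7, 145 without the 3 libraries of outside numbers, 156 without the vehicle library out of order and 103 with library totals (56 no longer called). With the hepatocyte markers held level 40 were the same, 76 were no longer called and 44 changed sign, because that scaling subtracts the markers' own shift from each difference. Precision is limited by 7 to 9 mice a group, and the causes of the other changes were not tested.

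Counts of members moved as follows. With the hepatocyte markers held level, the higher and lower counts were 3 and 3, 3 and 1, and 3 and 7 for semaglutide against vehicle at 8, 16 and 24 weeks, 4 and 10, 4 and 9, and 6 and 6 for chow reversal against vehicle, 1 and 2, 3 and 1, and 2 and 3 for semaglutide against chow reversal, 10 and 6 for vehicle against chow and 5 and 2 for semaglutide against chow. With library totals they were 4 and 1, 6 and 1, and 17 and 1 for semaglutide, 18, 16 and 19 higher for chow reversal, 0 and 5, 2 and 3, and 3 and 3 for semaglutide against chow reversal, 2 and 21 for vehicle against chow, 5 and 5 for semaglutide against chow and 1 and 0 for chow reversal against chow. With DESeq2, 8 were higher with semaglutide at 8 weeks. With no filter, 9 were higher with semaglutide at 16 weeks, 5 lower than chow reversal at 8 weeks, 0 higher and 4 lower at 16 weeks, 1 higher at 24 weeks, and 0 higher than chow. With only the compared groups, semaglutide gave 21 higher at 8 weeks and 3 at 16 weeks, and against chow reversal 18 lower at 8 weeks, 0 higher and 2 lower at 16 weeks, and 1 higher and 1 lower at 24 weeks. Without the 3 libraries of outside numbers semaglutide gave 11 higher at 8 weeks, and against chow reversal 0 higher and 2 lower at 16 weeks and 1 higher at 24 weeks. Without chow reversal replicate 7 these were 10 higher with semaglutide at 8 weeks, 1 higher than chow reversal at 24 weeks and 1 chow reversal member above chow, and the semaglutide calls against chow reversal of Ass1 at 16 weeks and Hgd at 24 weeks, and that of Ftcd against chow, were lost. With the library set term, and without the vehicle library out of order, 4 were lower than chow reversal at 16 weeks.

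Signs turned with the markers held level in these named members. For semaglutide against vehicle Mccc2 was -0.06 at 16 weeks, and at 24 weeks Aldh4a1 was -0.17, Arg1 -0.16, Cps1 -0.01, Ftcd -0.04, Gcdh -0.01, Gpt -0.11, Hgd -0.12, Ivd -0.09 and Mccc2 -0.13. For chow reversal against vehicle at 8 weeks Aldh4a1 was -0.19, Arg1 -0.00, Fah -0.02, Gcdh -0.15, Gpt -0.05, Hgd -0.31 and Mccc2 -0.07; at 16 weeks Aass was -0.08, Aldh4a1 -0.01, Fah -0.11, Gcdh -0.02, Got2 -0.27, Nags -0.01 and Otc -0.10; at 24 weeks Aass was -0.05, Arg1 -0.02, Fah -0.12, Gcdh -0.03, Got2 -0.29, Gpt -0.19, Hpd -0.01, Otc -0.14 and Prodh -0.05. For vehicle against chow Aass was 0.12, Aldh4a1 0.03, Arg1 0.05, Asl 0.02, Fah 0.14, Gcdh 0.01, Got2 0.34, Gpt 0.22, Hgd 0.46 (0.12 with library totals), Hpd 0.05 and Otc 0.06.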
